A study of Mus musculus with 4 samples.

Results

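The Ly6 genes followed here were Ly6a, Ly6c1, Ly6c2, Ly6d, Ly6e and Ly6i, chosen by gene symbol without regard to their values. All 6 were found among the 31053 genes of the 4 matrices, and all 6 had UMIs in every library. They encode small, cysteine-rich surface proteins tethered to the outer membrane by a glycosylphosphatidylinositol (GPI) anchor. Ly6a protein is Sca-1, a marker of haematopoietic stem cells that interferons raise in many leukocytes. Ly6c1 and Ly6c2 together encode the Ly-6C antigen, used to sort inflammatory monocytes and also found on plasma cells, memory T cells and some endothelium. Ly6d is known from B-lineage progenitors, B cells and plasmacytoid dendritic cells. Ly6e is an interferon-inducible member that is widely expressed and is known to restrict entry of some viruses. Ly6i is a close paralogue of Ly6a.

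The stress group was 2 libraries of CD45+ leukocytes sorted from total colon tissue of C57BL/6 wild-type animals restrained daily for 7 days, and the control group was 2 such libraries from animals given the control treatment. Whether each library is a separate animal or a pool is not stated, and the tests see no variation beyond that among these 4 libraries. Unique molecular identifiers (UMIs), each standing for 1 captured RNA molecule, were counted per gene and cell by droplet sequencing. After filtering, stress libraries 1 and 2 held 7777 and 4001 cells, against 2509 and 5356 in control libraries 1 and 2, with 95305893 UMIs in all. Cells were assigned to types by marker genes, none of them a Ly6 gene. Type names below mean cells that passed such a gate. The macrophage-like gate and the B cell-like gate shared 90.9% and 99.5% of their cells with clusters of that name, but other T cells shared 22.7%. Other T cells were T cells with UMIs of none, or of more than 1, of Cd4, the CD8 genes and the gamma-delta gene Trdc. Although the cells were sorted for CD45, 226 of the 2509 cells of control library 1 were fibroblast-like, against 8 and 1 in the stress libraries and 5 in control library 2. Levels are given as CPM, the UMIs of a gene in 1000000 UMIs of that cell type in that library. In such sums a lower level per cell and fewer expressing cells cannot be told apart. In plasma cell-like cells immunoglobulin genes took 61.5% to 66.5% of UMIs. This lowers the CPM of every other gene there, so orders in CPM of plasma cell-like against other cells are not orders of level outside immunoglobulin genes.

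The 6 genes lay within 349.9 kb of mouse chromosome 15 (GRCm38). Along the chromosome they stood in the order Ly6d (74762056 to 74763620), Ly6e (74955051 to 74959905), Ly6i (74979534 to 74983430), Ly6a (74994877 to 74998031), Ly6c1 (75044018 to 75048830) and Ly6c2 (75108158 to 75111970). Ly6e was on the plus strand and the other 5 were on the minus strand. How well reads can tell the copies apart bears on every value below, so the closest pairs are shown first. The first 120 coding bases of each pair (GENCODE vM21, GRCm38) carry capitals where the 2 members of that pair differ, at 6 positions in each pair:
Ly6c1: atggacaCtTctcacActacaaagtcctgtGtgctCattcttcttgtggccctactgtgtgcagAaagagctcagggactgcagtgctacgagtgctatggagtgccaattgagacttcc
Ly6c2: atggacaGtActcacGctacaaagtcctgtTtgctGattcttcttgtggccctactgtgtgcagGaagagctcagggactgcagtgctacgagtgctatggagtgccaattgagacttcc
Ly6a: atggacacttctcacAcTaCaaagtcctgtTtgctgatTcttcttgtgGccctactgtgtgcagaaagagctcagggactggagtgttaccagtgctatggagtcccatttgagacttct
Ly6i: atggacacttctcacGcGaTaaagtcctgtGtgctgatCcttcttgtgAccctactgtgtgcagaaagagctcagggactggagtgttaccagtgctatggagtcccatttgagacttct
Over the whole coding sequence Ly6c1 and Ly6c2 were 97.7% identical, with 9 differing columns of 396. Ly6a and Ly6i were 86.4% identical, with 55 differing columns of 405. A single annotated transcript per gene was compared. Of the 755 windows of 90 bases in that of Ly6c1, 134 occurred unchanged in that of Ly6c2, and in the last 400 bases 35 of 311 did. Among these transcripts no 90-base window was shared by any other pair of members. Counts of Ly6c1 and Ly6c2 are therefore less certain than the rest, since a read from a shared window fits both genes.

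The stretches before the transcript starts of Ly6c1 and Ly6c2 are shown because these near-identical genes were highest in different cell types. They are the 250 bases upstream of each start (RefSeq, GRCm38.p6, minus strand, chr15:75048838-75049087 for Ly6c1 and chr15:75111972-75112221 for Ly6c2), with capitals at motif matches:
Ly6c1: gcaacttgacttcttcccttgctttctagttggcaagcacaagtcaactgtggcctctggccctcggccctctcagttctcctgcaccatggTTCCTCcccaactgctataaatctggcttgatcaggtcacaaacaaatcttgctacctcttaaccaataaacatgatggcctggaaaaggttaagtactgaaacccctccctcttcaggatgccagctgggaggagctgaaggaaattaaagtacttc
Ly6c2: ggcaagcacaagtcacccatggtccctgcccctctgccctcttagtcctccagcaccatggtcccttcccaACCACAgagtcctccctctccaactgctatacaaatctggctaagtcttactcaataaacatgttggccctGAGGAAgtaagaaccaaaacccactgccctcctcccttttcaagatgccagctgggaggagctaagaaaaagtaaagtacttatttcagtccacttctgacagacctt
An alignment of the 2 stretches was 73.4% identical over 229 columns. On both strands, the core of the PU.1 motif, GAGGAA, matched once in each stretch, and 23.3% of 32851 mouse promoter stretches of the same length held it. The RUNX core TGTGGT matched once, in Ly6c2, and was held by 14% of promoters. The interferon-gamma-activated site TTCNNNGAA (7.02% of promoters) and the interferon-stimulated response element GAAANNGAAA (2.98%) had no match in either stretch. Matches of different motifs did not overlap.

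Ly6d, the B-lineage member, was concentrated in few types. Plasmacytoid dendritic cell-like cells had 3521 and 4296 CPM of Ly6d in the stress libraries, against 1875 CPM in control library 2, where only 10 such cells were found; control library 1 had 2. B cell-like cells came next, with 1014 and 1069 CPM in stress libraries against 1212 and 1290 CPM in control libraries, and then plasma cell-like cells. In CPM, the ranges of these 3 types over libraries did not overlap one another. However, plasma cell-like over B cell-like cells had a fitted log2 ratio for Ly6d of -0.43 that was not called. Its adjusted p was 0.333 by edgeR's quasi-likelihood test with the library as a block. Every other ranked type averaged 42.7 CPM or less. B cell-like cells held 72.3% of all Ly6d UMIs and plasma cell-like cells 21.9%.

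Ly6c1 and Ly6c2 were highest in different cell types, though some types held both. Ly6c1 reached 300 CPM in the fibroblast-like cells of control library 1, and fibroblast-like and endothelial-like cells held 41.4% and 15% of its UMIs. Other T cells held 21.2%, and both genes were present there. Ly6c1 had 35.9 and 21.3 CPM in stress and 28.2 and 34.3 CPM in control libraries of these cells. Ly6c2 had 79.7 and 95.3 CPM in stress and 91.3 and 89.8 CPM in control libraries. Among leukocytes Ly6c1 was highest in type 2 innate lymphoid cell-like (ILC2-like) cells, followed by T cells. The ILC2-like cells had 122 and 62.6 CPM of Ly6c1 in stress libraries and 58.7 and 78.3 CPM in control libraries. Ly6c2 had 0 UMIs in ILC2-like cells of all 4 libraries, which allows up to 4.996 CPM over the 4 together (3 counts, counting error only). The order for Ly6c2 was plasmacytoid dendritic cell-like cells (mean 1440 ± 652 CPM, SD, n = 3 libraries), monocyte-like cells (677 ± 203 CPM, n = 4) and plasma cell-like cells (354 ± 116 CPM, n = 4), and each range overlapped the next. CD8 T-like cells followed at 162 ± 54.4 CPM (n = 4), below plasma cell-like cells with no overlap. Monocyte-like cells had 3.83 ± 5.84 CPM of Ly6c1 (n = 4). Plasma cell-like cells held 69.0% of all Ly6c2 UMIs and monocyte-like cells 10.7%.

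Among T cells the members differed between CD8 and CD4 T-like cells. In CD8 T-like cells over CD4 T-like cells, Ly6c2 was higher (log2 ratio 4.32, SE 0.54, adjusted p = 0.0128), while Ly6a (-1.38, SE 0.19, adjusted p = 0.00204) and Ly6e (-0.43, SE 0.09, adjusted p = 0.000765) were lower, by edgeR's quasi-likelihood test with the library as a block. Of all genes tested, 13.7% passed in this pair in either direction. Without control library 1 the Ly6c2 ratio was 4.37 with adjusted p = 0.0673. With types taken from clusters the Ly6a ratio was -0.49 with adjusted p = 0.718. CD4 T-like cells with a UMI of Foxp3, the factor of regulatory T cells, had 1525 and 1172 CPM of Ly6a in stress libraries and 951 and 222 CPM in control libraries. CD4 T-like cells without Foxp3 had 590 and 471 CPM in stress libraries and 445 and 87.2 CPM in control libraries. In each library the Foxp3-positive cells were higher. They were few, 28 and 22 in stress libraries and 10 and 21 in control libraries. Ly6e stood in the same order, with 1223 and 1506 CPM in Foxp3-positive cells of stress libraries and 1426 and 888 CPM in those of control libraries, against 651 and 700.2 CPM (stress) and 770 and 386 CPM (control) in cells without Foxp3.

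Ly6a and Ly6e were broad. Ly6e was found in all 17 types ranked, with means from 279 CPM in the fibroblast-like cells of control library 1 to 1699 ± 370 CPM in plasmacytoid dendritic cell-like cells (SD, n = 3), and its ranges overlapped between almost all neighbours in that order. Ly6a ran to 1223 CPM in fibroblast-like cells of control library 1, 996 ± 241 CPM in plasmacytoid dendritic cell-like cells (n = 3) and 719 ± 359 CPM in ILC2-like cells (n = 4), and neutrophil-like cells of the 2 stress libraries, at 0 and 45.7 CPM, were lowest. Neighbouring types overlapped all along that order except above neutrophil-like cells. Plasma cell-like and B cell-like cells together held most Ly6a UMIs, 37.4% and 25.4%. Ly6i was highest in myeloid cells, at 103 ± 55.5 CPM in monocyte-like and 69.3 ± 73.4 CPM in macrophage-like cells (SD, n = 4 each). Monocyte-like and macrophage-like cells held 32.4% and 29.8% of its UMIs, and plasma cell-like cells 17.4%. It had 0 UMIs in all 4 libraries in CD8 T-like, gamma-delta T-like, natural killer-like and ILC2-like cells, which allows up to 0.572, 3.43, 4.14 and 4.996 CPM over the libraries of each type. Plasma cell-like cells over B cell-like cells had more Ly6c2 (log2 ratio 8.44, SE 0.18, adjusted p = 1.41e-10) and Ly6i (4.95, SE 0.48, adjusted p = 6.2e-06), in a pair where 67.4% of all genes passed. Immunoglobulin genes took 61.5% to 66.5% of plasma cell-like UMIs, and for Ly6d and Ly6e the fitted ratios, -0.43 and 0.09, were not called. Ly6a had a ratio of 1.84 (SE 0.53, adjusted p = 0.0539), called with immunoglobulin genes left out (1.84, adjusted p = 0.0483) and with no filter on low counts (1.82). In monocyte-like over macrophage-like cells none of the 5 members tested passed by edgeR (3 had an unadjusted p under 0.05), where 14.8% of all genes did. Ly6c2 had the largest ratio there, 2.56 (SE 0.68, adjusted p = 0.127), and 1 to 3 members passed when 1 library was left out, most without control library 1 (Ly6a -1.55, Ly6c2 1.94 and Ly6e 0.45), where 13% of all genes did.

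**Figure D1:**
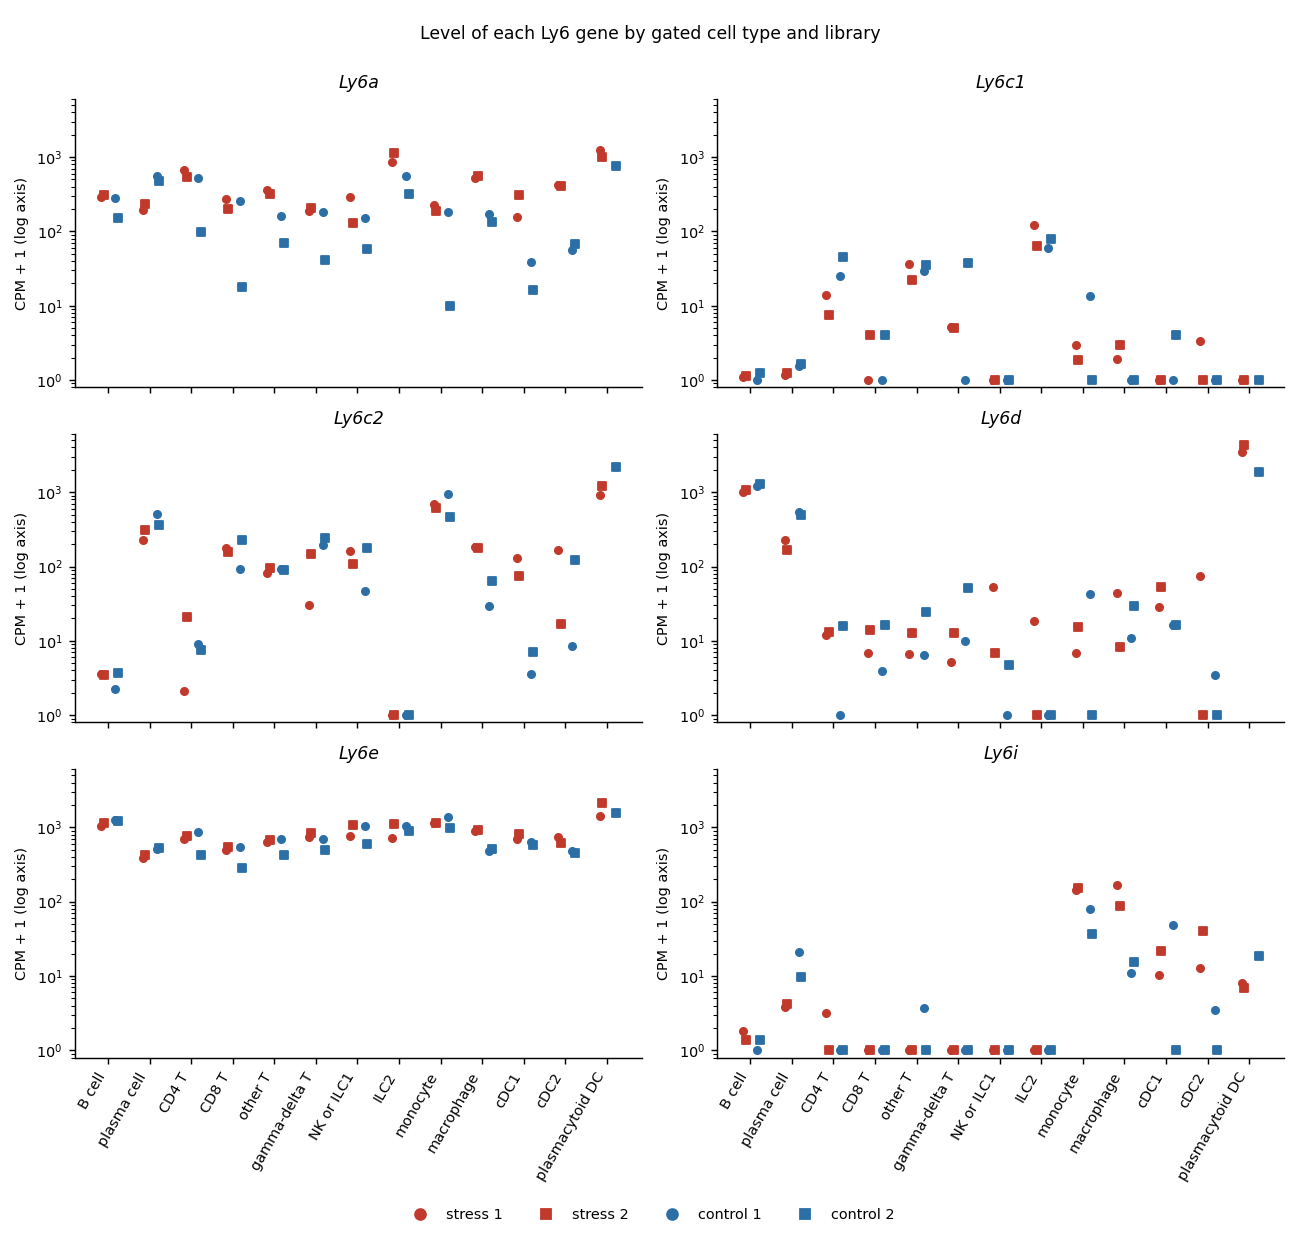
Level of each of the 6 genes (CPM plus 1, log axis) by gated cell type, with 1 point per library of at least 10 cells, stress libraries (red) left of control libraries (blue). Ly6d is high in plasmacytoid dendritic cell-like and B cell-like cells, Ly6c2 in plasmacytoid dendritic cell-like, monocyte-like and plasma cell-like cells, and Ly6e in every type shown.

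The genes most like each member over the 17 types were found by Pearson's r of log2(CPM + 10) among 9753 genes. All points share the same 4 libraries, and r is a description only. They were Man2a2 (r = 0.877), Tmed9 (0.848) and Sec22b (0.83) for Ly6a. For Ly6c1 they were Spry1 (0.971), Bmp7 (0.968) and Tmem158 (0.946). For Ly6c2 they were Gm5547 (0.818), Uso1 (0.73) and Evi2a (0.703). For Ly6d they were Fcrla (0.972), Cacna1e (0.91) and Tmem163 (0.91). For Ly6e they were Tyk2 (0.811), Atp8a1 (0.811) and mt-Nd3 (0.794). For Ly6i they were Ifi204 (0.949), Klra2 (0.937) and Gm9733 (0.924).

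Whether restraint stress altered the family was asked first in macrophage-like cells, marked by C1q and other tissue macrophage genes. Ly6a, Ly6c2 and Ly6i rose with stress there, while Ly6e did not pass the threshold of 0.05 on p-values adjusted over all genes. Ly6a had 518 and 559 CPM in stress libraries, against 172 and 134 CPM in control libraries. Both stress values lay above both control values, a 3.27-fold rise (log2 fold change 1.71, SE 0.22, edgeR adjusted p = 0.00798). Ly6c2 had 183 and 178 CPM in stress libraries, against 28.7 and 62.9 CPM in control libraries, a 4.31-fold rise (log2 2.11, SE 0.28, adjusted p = 0.00798). Ly6i had 166 and 87.6 CPM in stress libraries, against 9.86 and 14.3 CPM in control libraries, where it rested on 11 and 5 UMIs. Its fitted rise was 10.5-fold (log2 3.39, SE 0.42, adjusted p = 0.00645). The groups did not overlap, though the 2 stress libraries differed from each other more than the 2 control libraries did. Ly6e had 881 and 905 CPM in stress libraries and 479 and 509 CPM in control libraries (log2 0.79, SE 0.19, adjusted p = 0.0975). Of the 5 members tested, 3 were called up, where 0.328% of all 7306 genes were. The median log2 fold change was 1.71 over the members and -0.01 over all genes. With all 4 libraries Ly6e passed with no filter on low counts (log2 0.85, adjusted p = 0.00535), where 2.17% of all genes did, and with the replicate number as a block (0.79, adjusted p = 0.0382), where 3.09% did. Ly6e also passed without control library 1 (log2 0.83, adjusted p = 0.000212) or control library 2 (0.78, adjusted p = 0.000188). In those fits 4.05% and 8.46% of all genes passed, and the lone control library is assumed to vary like the stress libraries. Ly6i was no longer called without control library 1 (log2 3.12, adjusted p = 0.0637) or with types from clusters (2.4, adjusted p = 0.0644). Ly6c2 was not called with equal cell numbers per library (1.68, adjusted p = 0.123).

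The share of macrophage-like cells with a Ly6a UMI moved in the same way. With every cell thinned to 1000 UMIs, 31.3% and 35.1% of them had a Ly6a UMI in stress libraries, against 10.6% and 5.88% in control libraries. The exact 95% intervals, which cover counting error only, were 25.4% to 37.7% and 28% to 42.6% in stress libraries, and 6.58% to 15.9% and 1.23% to 16.2% in control libraries. Thinning left out 19 and 26 cells of the stress libraries and 61 and 7 of the control libraries. Unthinned shares were 55.0% and 57.5% in stress libraries and 18.4% and 15.5% in control libraries. For Ly6c2 the thinned share was 11.5% ± 1.6 in stress and 2.3% ± 0.48 in control libraries (SD, n = 2 each). Two-sided exact permutation tests gave p = 0.333 for both, the smallest value that 2 against 2 libraries allow. Ly6d, a B-lineage gene that macrophages should lack, had a UMI in 2.31% ± 1.65 of macrophage-like cells in stress libraries and 2.49% ± 2.02 in control libraries (n = 2 each). After thinning, the Ly6c2 share in control macrophage-like cells was at that level. Unthinned, control libraries 1 and 2 had a Ly6c2 UMI in 6% and 17.2% of these cells and a Ly6d UMI in 2.4% and 8.62%.

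Conventional dendritic cells, which present antigen to T cells, showed a rise in Ly6a. In cDC2-like cells Ly6a had 419 and 404 CPM in stress libraries, against 55.3 and 67.5 CPM in control libraries. This was a 6.4-fold rise (log2 2.68, SE 0.26, edgeR adjusted p = 2.89e-05), the 1 member called of 3 tested, where 0.483% of all genes were called up. In cDC1-like cells Ly6a had 157 and 309 CPM in stress libraries, against 37.9 and 15.4 CPM in control libraries, or 15 and 5 UMIs (log2 3.03, SE 0.44, adjusted p = 0.00349). Ly6c2 was also called up in cDC1-like cells (adjusted p = 0.000664), so that 2 of 3 members were, where 0.434% of all genes were. Its values were 130 and 72.6 CPM in stress libraries and 2.53 and 6.16 CPM in control libraries. However, 26 of the 28 Ly6c2 UMIs of stress library 1 came from 1 cell, as did 11 of the 28 of stress library 2, and the gene was too low to test once the highest cell of each library was left out. Ly6a stayed called without those cells in cDC1-like (log2 3.83, adjusted p = 0.0124) and cDC2-like cells (3.34, adjusted p = 1.79e-07). With types from clusters neither Ly6a call held (cDC1 1.48, adjusted p = 0.157, and cDC2 1.1, adjusted p = 0.0699). With the UMIs of close copies summed the cDC1 call was also lost (2.18, adjusted p = 0.702). The Ly6i UMIs added there were 2 and 8 in stress libraries, 19 in control library 1, all from 1 cell, and 0 in control library 2. Each dendritic type held only 30 to 76 cells per library. Ly6c2 in cDC2-like cells showed no grouping, with 167 and 15.8 CPM in stress libraries and 7.54 and 120 CPM in control libraries.

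Monocyte-like cells had no member called. Ly6c2, the gene by which they are commonly sorted, had 685 and 605 CPM in stress libraries, between the 951 and 470 CPM of the control libraries (log2 -0.18, SE 0.28, adjusted p = 0.919). Ly6e had 1135 and 1155 CPM in stress libraries, between the 1356 and 988 CPM of the control libraries. Ly6i had 145 and 152 CPM in stress libraries, above the 79.2 and 35.8 CPM of the control libraries (log2 1.32, SE 0.31, adjusted p = 0.263). Ly6a had 227 and 185 CPM in stress libraries, against 179 CPM in control library 1 and 8.94 CPM, or 2 UMIs, in control library 2. By edgeR 1 of the 4 members tested had an unadjusted p under 0.05 and DESeq2 called none. In this type 0.0522% of all genes were called. Without control library 1, Ly6a (log2 4.52, adjusted p = 1.35e-07) and Ly6i (2.07, adjusted p = 0.000922) were called, against a single control library of 36 monocyte-like cells and where 1.77% of all genes were. The stress effect in macrophage-like cells minus that in monocyte-like cells was tested directly. It was called for Ly6e (log2 difference 0.85, SE 0.18, adjusted p = 0.0133), where 0.456% of all genes were, and not for Ly6a (0.69, adjusted p = 0.953), Ly6c2 (2.41, adjusted p = 0.279) or Ly6i (2.16, adjusted p = 0.131). For Ly6e it was not called without control library 1 (0.55, adjusted p = 0.29), stress library 1 (0.85, adjusted p = 1) or stress library 2 (0.79, adjusted p = 0.766). Ly6c2 and Ly6i were called in the same test without control library 2 (3.13 and 2.61) or stress library 2 (2.18 and 2.56), and Ly6a without control library 2 (1.37). Of all genes 1.28% were called without control library 2 and 0.221% without stress library 2.

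**Figure D2:**
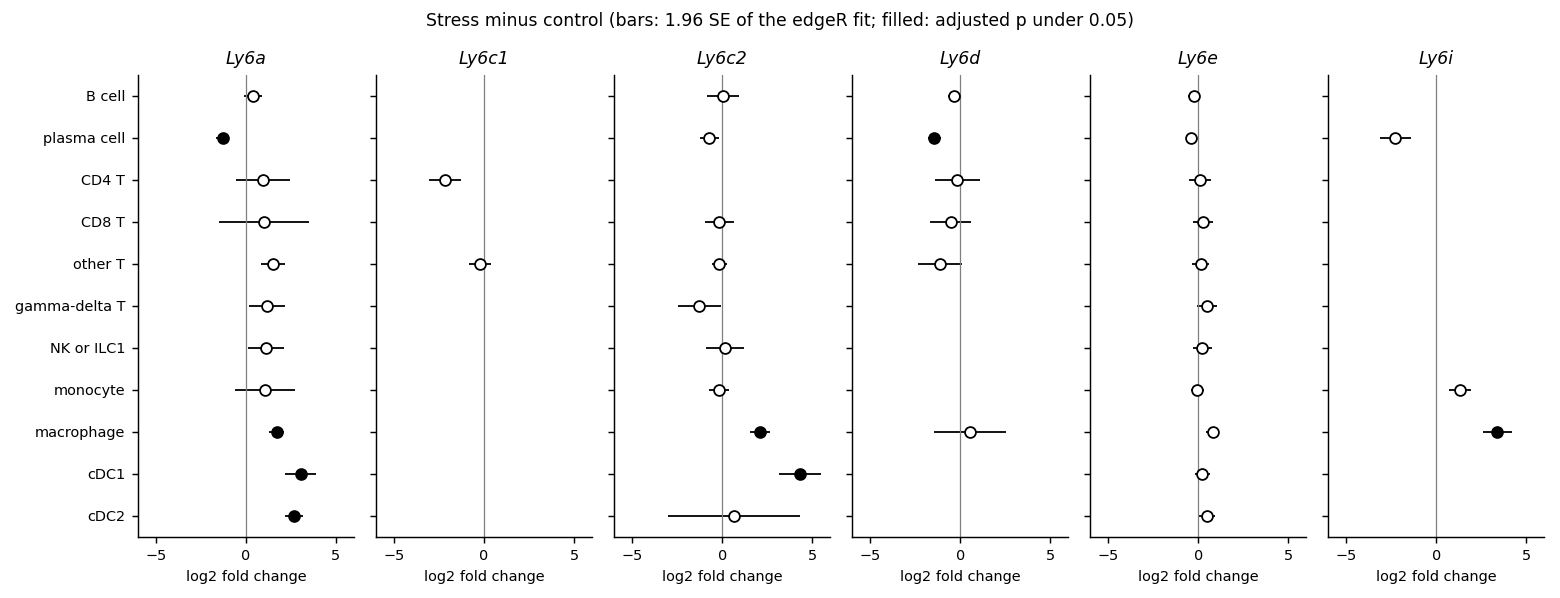
Log2 fold change of stress over control for each Ly6 gene in each gated type, by edgeR on UMI sums of 2 stress and 2 control libraries, with bars of the 95% interval from the standard error and filled points where the adjusted p was under 0.05. Ly6a is called up in macrophage-like, cDC1-like and cDC2-like cells and called down in plasma cell-like cells.

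Monocyte-like and macrophage-like cells lie on a continuum, so they were also pooled and cut by C1q UMIs into cells with none, with few and with many, at 88.2 C1q UMIs per 10000, with 60 cells within 10% of the cut. The bins are ranges and not types. In the high bin Ly6a had 581 and 532 CPM in stress libraries, against 109 and 53.5 CPM in control libraries. In the low bin it had 494 and 505 CPM in stress libraries and 395 and 227 CPM in control libraries. In the bin with no C1q it had 211 and 206 CPM in stress libraries and 137 and 11.1 CPM in control libraries. Stress values of Ly6a were above control values in all 3 bins, by the widest margin where C1q was high. The 11.1 CPM of control library 2 rests on few UMIs, as its 36 monocyte-like cells held 2 of Ly6a. Ly6c2 decreased with C1q in every library: the bin with no C1q had 704 and 583 CPM in stress libraries and 753 and 429 CPM in control libraries. The low bin had 231 and 328 CPM of Ly6c2 in stress libraries against 220 and 52.3 CPM in control libraries, and the high bin had 85.6 and 29.3 CPM against 6.11 and 15.3 CPM, the last 2 being 5 and 2 UMIs. The bins held different numbers of cells. The high bin had 80 and 90 cells in stress libraries and 186 and 24 in control libraries, and the low bin 175 and 123 in stress libraries and 59 and 24 in control libraries.

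**Figure D3:**
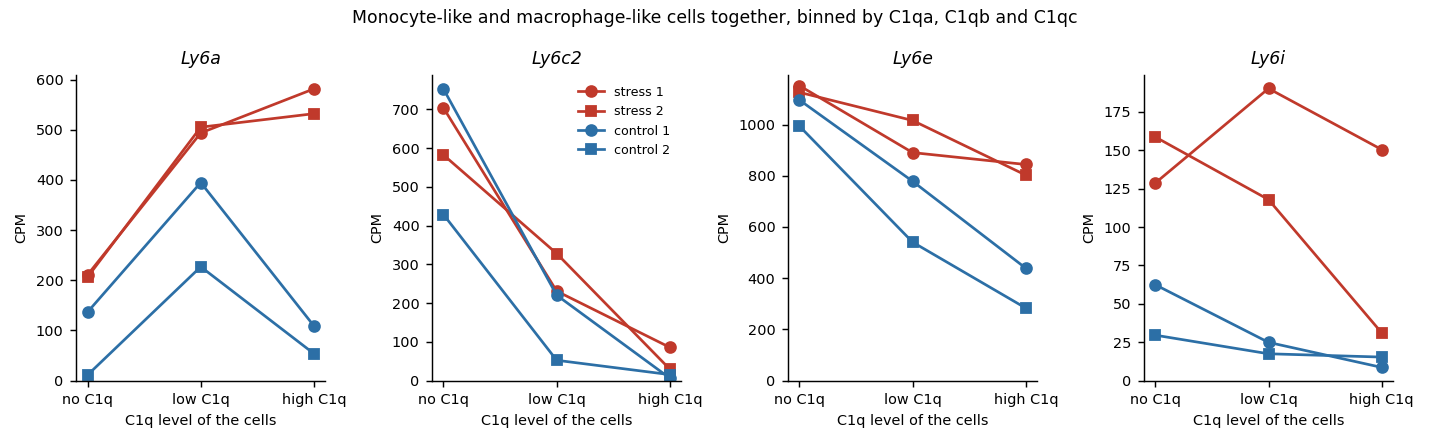
Levels of Ly6 genes (CPM) in pooled monocyte-like and macrophage-like cells binned by C1q UMIs, with 1 line per library, stress in red and control in blue. Ly6a in the high bin lay at 532 and 581 CPM in stress libraries and at 53.5 and 109 CPM in control libraries, and Ly6c2 was lower from the bin with no C1q to the high bin in every library.

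Sums of cell type markers were apart between stress and control libraries for some lists and overlapped for others. Their part in these differences was not tested. In macrophage-like cells the summed level of the 10 monocyte markers was 1401 and 1212 CPM in stress libraries and 614 and 1298 CPM in control libraries, with 8 and 9 markers detected in stress and 9 and 10 in control libraries; Cd177 or Ace was at 0 in 3 of the 4. The sum of the 11 macrophage markers was 17600 and 18820 CPM in stress libraries and 39130 and 18300 CPM in control libraries, with all 11 detected. The 8 plasma cell markers summed to 481 and 582 CPM in stress and 299 and 152 CPM in control macrophage-like cells. In cDC1-like cells those 8 markers summed to 310 and 402 CPM in stress and 164 and 139 CPM in control libraries. In cDC2-like cells they summed to 318 and 288 CPM in stress and 146 and 120 CPM in control libraries. Not all 8 were detected: 5 and 4 in stress and 5 and 4 in control cDC1-like cells. In cDC2-like cells 5 and 5 were detected in stress and 4 and 4 in control libraries. Tnfrsf17 was at 0 in every library of both types. In plasma cell-like cells the macrophage markers summed to 237 and 182 CPM in stress and 291 and 513 CPM in control libraries, and the monocyte markers to 14.8 and 14.4 CPM in stress and 18.7 and 21.8 CPM in control libraries. The macrophage markers in cDC2-like cells summed to 304 and 349 CPM in stress and 618 and 690 CPM in control libraries.

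Plasma cell-like cells, the antibody-secreting cells marked by Jchain and Xbp1, moved the opposite way. Ly6d had 223 and 165 CPM in stress libraries, against 542 and 485 CPM in control libraries (log2 -1.43, SE 0.18, edgeR adjusted p = 0.0213). Ly6a had 195 and 233 CPM in stress libraries, against 561 and 479 CPM in control libraries (log2 -1.3, SE 0.19, adjusted p = 0.0347). For both genes every stress value was below every control value, by more than the spread within either group. These 2 of 5 members tested were called down, where 0.371% of all 9712 genes were, and the median of the members was -1.3 against 0.00 over all genes. Ly6c2 had 230 and 313 CPM in stress libraries and 505 and 366 CPM in control libraries (adjusted p = 0.469), and Ly6e 382 and 418 CPM in stress libraries and 518 and 528 CPM in control libraries (adjusted p = 0.386). Ly6i had 2.82 and 3.22 CPM in stress libraries and 19.8 and 8.79 CPM in control libraries (log2 -2.28, SE 0.44, adjusted p = 0.129, though 0.00356 by DESeq2), and was called in each fit that left out 1 library (log2 -1.42 to -2.8), where 1.56% to 3.67% of all genes were. Ly6c2 was called without stress library 2 (log2 -0.99, adjusted p = 0.0025). Ly6a was no longer called without the highest cell of each library (log2 -1.19, adjusted p = 0.06) or with the replicate number as a block (-1.29, adjusted p = 0.0787). After thinning, 13.2% ± 2.88 of plasma cell-like cells had a Ly6d UMI in stress and 31.3% ± 0.2 in control libraries (SD, n = 2 each). The plasma cell marker sum was 74160 and 71800 CPM in stress and 77100 and 71940 CPM in control libraries. In plasma cell-like cells with more Igha than Ighm and Ighg UMIs, Ly6d had 222 and 153 CPM in stress and 554 and 495 CPM in control libraries. In those with more Ighm or Ighg it had 250 and 532 CPM in stress and 318 and 342 CPM in control libraries, over 71 and 35 cells in stress and 16 and 15 in control libraries. Ly6a in the Igha-higher cells had 188 and 222 CPM in stress and 572 and 457 CPM in control libraries. In the cells with more Ighm or Ighg it had 325 and 605 CPM in stress and 356 and 817 CPM in control libraries. The groups were thus apart for both genes in Igha-higher cells and overlapped for both in the others. The stress effect in macrophage-like minus plasma cell-like cells, a test chosen after the values were seen, was 3.03 for Ly6a (log2, SE 0.17), 1.18 for Ly6e (SE 0.15) and 5.84 for Ly6i (SE 0.49), all called, where 1.74% of all genes were. It was 2.91 for Ly6c2 and 1.97 for Ly6d, with adjusted p = 0.295 and 0.753, and Ly6c2 was called in each fit that left out 1 library (1.97 to 3.52), where 0.981% to 2.92% of all genes were.

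**Figure D4:**
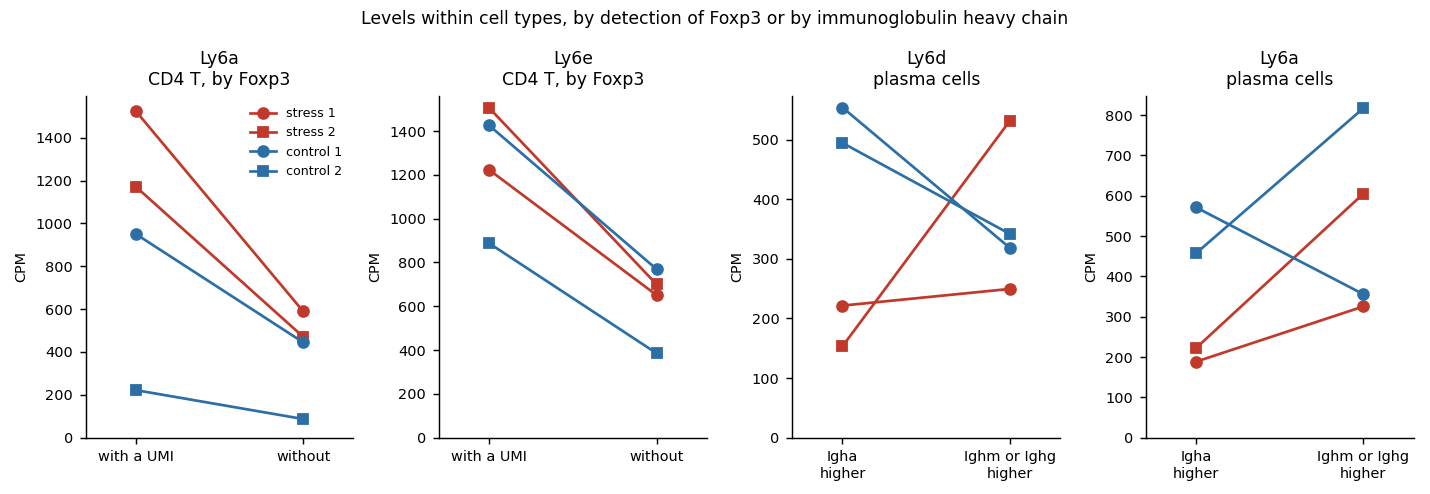
Levels of Ly6a and Ly6e in CD4 T-like cells with and without a UMI of Foxp3, and of Ly6d and Ly6a in plasma cell-like cells split by immunoglobulin heavy chain (all in CPM), with a line joining the 2 subsets of each library, stress libraries in red and control libraries in blue. Ly6a was higher where Foxp3 was detected in all 4 libraries, and Ly6d in Igha-higher cells lay at 153 to 222 CPM in stress and 495 to 554 CPM in control libraries.

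**Figure D5:**
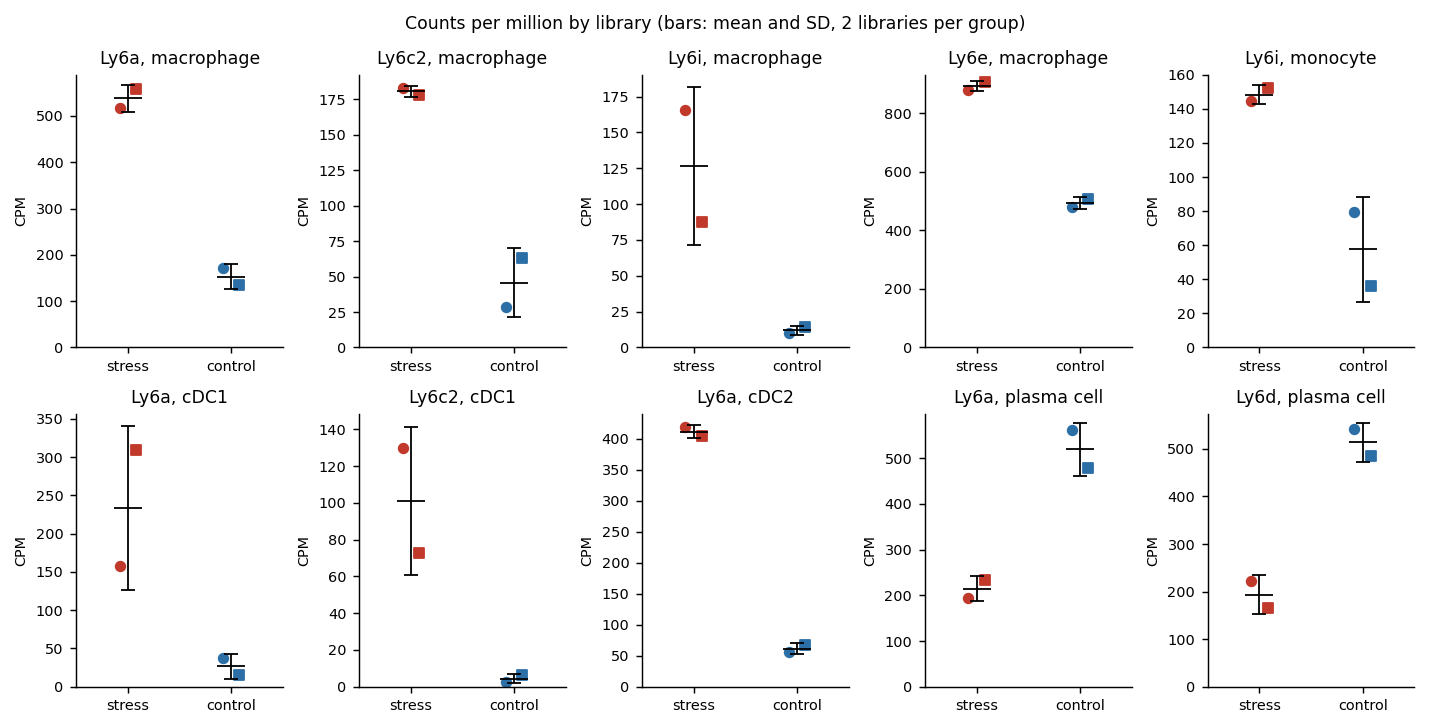
CPM in each library for the 8 calls, and for Ly6e in macrophage-like and Ly6i in monocyte-like cells, which were not called, with stress libraries left of control libraries and bars for the mean and SD (n = 2). Macrophage-like, cDC1-like and cDC2-like stress libraries lie above their controls, and plasma cell-like stress libraries lie below theirs.

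In lymphocytes other than plasma cell-like cells, and in all cells summed, no member was called by edgeR with all 4 libraries. In B cell-like cells Ly6d and Ly6e differed by -0.35 and -0.26 on the log2 scale (adjusted p = 0.36 and 0.526), where 0.239% of all genes were called. In CD4 T-like cells Ly6a had 664 and 531 CPM in stress libraries and 517 and 96.1 CPM in control libraries, and in CD8 T-like cells 270 and 198 CPM in stress and 254 and 16.7 CPM in control libraries. Control library 2 was thus the low one in both types, while control library 1 lay just below the stress libraries in CD4 T-like cells and between them in CD8 T-like cells. The summed level of 22 interferon gamma response genes was also lowest in control library 2, at 2309 and 2435 CPM in stress and 2466 and 1204 CPM in control CD4 T-like cells and at 2052 and 2191 CPM in stress and 1751 and 1206 CPM in control CD8 T-like cells. In other T cells Ly6a had 358 and 317 CPM in stress and 161 and 68.7 CPM in control libraries (log2 1.52, SE 0.34, adjusted p = 0.471, though 0.0293 by DESeq2). Ly6c1 in CD4 T-like cells had 13 and 6.48 CPM in stress and 23.9 and 44.0 CPM in control libraries (log2 -2.17, SE 0.46, adjusted p = 0.206). Of all genes 0.0395% were called in CD4 T-like cells, 0.196% in natural killer-like cells and none in CD8 T-like, gamma-delta T-like and other T cells. Among these lymphocyte gates at most 1 member per type had an unadjusted p under 0.05. Without control library 1 Ly6a was called up in all cells (log2 1.02), B cell-like (0.87), CD4 T-like (2.46), CD8 T-like (3.61), gamma-delta T-like (2.27), other T (2.16) and natural killer-like cells (1.84), with control library 2 as the single control. Calls were widespread in several of these fits: of all genes 20.4% passed in all cells, 12.7% in B cell-like, 11% in both CD4 and CD8 T-like, 0.974% in gamma-delta T-like, 3.75% in other T and 0.875% in natural killer-like cells. Without control library 2, Ly6a was called up in other T cells (1.03, where 1.59% of all genes passed) and was -0.14 in CD8 T-like and -0.37 in all cells, not called. Ly6c1 in CD4 T-like cells was called without control library 1 (-2.39) or stress library 1 (-2.66), Ly6c2 in gamma-delta T-like cells without stress library 2 (-2.89) and in CD8 T-like cells without control library 1 (-0.63), and Ly6e without control library 1 in CD4 T-like (0.63) and CD8 T-like cells (0.69). Over all cells Ly6c1 was 4.11 and 2.34 CPM in stress libraries and 40.4 and 9.05 CPM in control libraries (log2 -2.78, adjusted p = 0.713, and 0.0294 by DESeq2), with fibroblast-like cells making 9.0% of control library 1. It was called without control library 1 (-1.28) or control library 2 (-3.47), as was Ly6i in all cells (2.88 and 0.55), where 20.4% and 22.9% of all genes were. Over the 11 gated types in which it could be tested, the Ly6a fold change was positive in 10 and negative in plasma cell-like cells. Ly6e was positive in 8 of 11 and Ly6c2 in 5 of 10. Over the 12 fits, all cells included, 49 tests of members gave 6 calls up and 2 down. The calls up lay in macrophage-like, cDC1-like and cDC2-like cells, where 0.328%, 0.434% and 0.483% of all genes were called up. The calls down lay in plasma cell-like cells, where 0.371% were called down. All fits used the same 4 libraries, and the fit of all cells held the cells of the others, so these tests are not independent.

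Related pathways were read from lists of genes, given as counts passing edgeR's test. Of the interferon gamma response genes, 4 of 19 tested rose in macrophage-like cells and none fell, the guanylate-binding proteins Gbp5 (log2 2.39) and Gbp2 (2.37) and the peptide transporter Tap1 (1.18) among them, with a list median of 0.99 against -0.01 over all genes. In cDC2-like cells 6 of 17 rose, Gbp5, Cxcl10 and Tap1 among them, with a median of 1.69. In plasma cell-like cells, where Ly6a and Ly6d fell, 3 of 22 rose, where 0.0618% of all genes did, Irgm1 (1.53) and Gbp2 (1.18) among them. In monocyte-like cells none of 19 passed, 11 had an unadjusted p under 0.05, DESeq2 called 2 and all 19 fold changes were positive, with a median of 1.07. Of type I interferon response genes, Zbp1 (1.56) alone of 26 passed in macrophage-like cells. However, 24 of the 26 fold changes were positive and 9 genes had an unadjusted p under 0.05. The list median was 0.63 against -0.01 over all genes. In B cell-like cells none passed, yet all 20 interferon gamma response genes (median 0.65) and all 26 type I genes (0.69) were positive. In cDC1-like cells 12 of 13 interferon gamma response genes (median 1.03, 1 rose) and 9 of 11 type I genes (1 rose) were positive. In cDC2-like cells 13 of 14 type I genes were positive and 2 rose. In natural killer-like cells 7 of 11 interferon gamma response genes were positive and 1 fell. Of monocyte maturation genes, Chil3 (4.3), a chitinase-like gene of fresh monocytes, alone of 19 rose in macrophage-like cells by edgeR, while DESeq2 called 2. It had 37.9 and 25.4 CPM in stress libraries and only 0.896 and 2.86 CPM in control libraries. Chil3 is also 1 of the 10 monocyte markers of the gate. Of the 19 fold changes 7 were positive, with a median of -0.26, and 10 genes had an unadjusted p under 0.05.

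The other lists had no call in macrophage-like cells by edgeR or DESeq2. These were the 16 tested genes that make and attach the GPI anchor (0 with an unadjusted p under 0.05), the 8 of T cell naive and memory state (2) and the 7 glucocorticoid targets (1). In monocyte-like cells neither tool called any of the 23 type I interferon genes (3 with an unadjusted p under 0.05), 11 GPI anchor genes (0), 20 maturation genes (8), 6 T cell genes (0) or 7 glucocorticoid targets (1). In all cells summed edgeR called none of any list. Even so, 21 of 22 interferon gamma response genes were positive there (median 0.63, 11 with an unadjusted p under 0.05). All 29 type I interferon genes were positive as well (median 0.59, 5 with an unadjusted p under 0.05). DESeq2 called there 3 of 22 interferon gamma response genes, 1 of 29 type I interferon genes, 2 of 20 maturation genes and 1 of 7 other Ly6/uPAR family genes. Among 34 other Ly6/uPAR family genes, 32 were in the files, 11 were at 0 and 6 had 100 or more UMIs. Plaur, the urokinase receptor, was the one that passed in plasma cell-like cells. It had 5.01 and 4.57 CPM in stress libraries and 17.6 and 14.3 CPM in control libraries (log2 -1.76, adjusted p = 0.0213). In macrophage-like cells it had 476 and 530 CPM in stress libraries and 764 and 640 CPM in control libraries (log2 -0.56, adjusted p = 0.311). A fall in this list was not particular to plasma cell-like cells. In B cell-like cells, which held 6421 of the 13021 Plaur UMIs, 1 of the 5 genes tested also fell, where 0.239% of all genes were called. The list summed there to 208 and 163 CPM in stress libraries and 351 and 406 CPM in control libraries.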

How the data were processed

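The unit is UMI counts per gene and cell barcode, as deposited by the authors in 4 filtered matrices (2 stress, 2 control). Per the submitters' processing notes they were made with Cell Ranger 5.0 on mm10, while per the file headers the software is 3.1.0; neither source says how reads shared by close copies were counted. Barcodes held 13806189 to 39074920 UMIs per library, and pairs of libraries shared 3 to 19 barcodes. Barcodes were kept from 500 UMIs up if mitochondrial genes gave no more than 10%, which left out 11.1% to 26.0% per library by the mitochondrial limit. Scored doublets (53 to 556 per library) were left out; an automatic threshold was found in control library 2 only, and elsewhere the expected rate of 0.8% per 1000 barcodes set it. Each cell was gated to the type whose markers led the next type's. Gate types were compared with Leiden clusters made without the members (scanpy 1.11.5).

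UMIs were summed per library and type with at least 30 cells in every library, and tested with edgeR 4.0.16 (TMM, filterByExpr, robust quasi-likelihood, Benjamini-Hochberg over all genes, threshold 0.05, two-sided) in R 4.3.3. DESeq2 1.42.0 was an alternative. Comparisons of 2 types or of effects between types used the library as a block. Intervals on shares are exact binomial at 95%, and cover counting error only. The script was tested on simulated data, where the share of false calls was above the threshold in macrophage-like and plasma cell-like sums, so adjusted p-values near it there are less certain than stated. Named genes were the 6 members, the 3 genes most like each, and from each list the called genes, at most 4 per direction, or else the 3 of smallest p; text on lists gives a part of them, and names in other types follow the same rule. Some called genes of these lists are not reported here. The members, lists and gates were chosen with earlier results of these data known. Replicate numbers are not said to pair libraries.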

Additional observations from a re-analysis of the deposited data

Results flagged for a closer look

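In 4 results the stress effect differed between cell types by a direct test of the difference, with edgeR and the library as a block. The Ly6e effect was larger in macrophage-like than in monocyte-like cells, by 0.848 on the log2 scale (adjusted p = 0.0133). It was not called without control library 1 (adjusted p = 0.29), stress library 1 (1) or stress library 2 (0.766). The effects of Ly6a, Ly6e and Ly6i were higher in macrophage-like than in plasma cell-like cells, by 3.03, 1.18 and 5.84 on the log2 scale (adjusted p = 1.89e-17, 7.9e-07 and 5.47e-07). This second pair of types was chosen after the values were seen, and Ly6a had risen in one type and fallen in the other. Stress libraries differed from control libraries also in the sum of plasma cell markers in macrophage-like cells, 481 and 582 CPM in stress and 299 and 152 CPM in control libraries, and its part in these differences was not tested.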

How the results depend on the processing

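The count of members called in macrophage-like cells stayed within 1.5 times 3 under every alternative run, and so did that in the pair of CD8 and CD4 T-like cells within its own count. Leaving out 1 library at a time, the members called ranged from 0 to 3 in all cells, CD4 T-like and CD8 T-like cells, 0 to 1 in B cell-like, gamma-delta T-like and natural killer-like cells, 0 to 2 in other T and monocyte-like cells, 3 to 4 in plasma cell-like cells, 1 to 2 in cDC2-like cells, 0 to 4 for macrophage-like minus monocyte-like effects, 4 to 5 for macrophage-like minus plasma cell-like effects and 1 to 3 for monocyte-like over macrophage-like levels. The highest count came without control library 1 in all cells, B cell-like, T-like, natural killer-like and monocyte-like cells and for monocyte-like over macrophage-like levels. It came without stress library 2 in plasma cell-like and cDC2-like cells and for macrophage-like minus plasma cell-like effects, and without control library 2 for macrophage-like minus monocyte-like effects. With no filter on low counts, 4 members were called in plasma cell-like cells, where 2.22% of all genes were. That setting called 1 member in CD4 T-like (0.952% of all genes), other T (0.481%) and monocyte-like cells (0.702%), and 2 in cDC2-like cells (0.824%). Members called under it numbered 3 for macrophage-like minus monocyte-like effects and 2 for monocyte-like over macrophage-like levels. For plasma cell-like over B cell-like levels they numbered 4. DESeq2 called 1 member in all cells, where it called 135 of 13143 genes, and 1 in other T cells, where it called 12 of 8283 genes. With types from clusters, 1 was called in other T and cDC1-like cells, 0 in cDC2-like cells, 2 for macrophage-like minus monocyte-like effects and 3 for monocyte-like over macrophage-like levels, where keeping doublets gave 1. Summing close copies left 1 call in cDC1-like cells, the Ly6a call being lost. The cause of these shifts was not tested. For counts from clusters, kept doublets and summed copies, and for no-filter counts between types, the share of all genes is not given. Those counts are therefore not read as results about the members.

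The replicate number as a block left 1 call in plasma cell-like cells, as Ly6a had adjusted p = 0.0787 (log2 -1.29). Numbers were not shown to pair libraries: deviations of libraries with the same number correlated at -0.0417 in all cells. In CD4 T-like, CD8 T-like, natural killer-like and other T cells the correlation was -0.106, -0.171, -0.11 and -0.13, and the crossed pairing called 107, 4, 15 and 127 genes there; it called 1 member in CD4 T-like and 1 in other T cells.

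Some log2 effects, none of them called with all libraries, changed sign. Without 1 library at a time Ly6a ranged from -0.374 to 1.02 in all cells, -0.14 to 3.61 in CD8 T-like cells and -2.54 to 1.37 for macrophage-like minus monocyte-like effects. Ly6d ranged from -0.421 to 0.136 in all cells. Ly6e ranged from -0.314 to 0.633 in CD4 T-like, -0.0897 to 0.689 in CD8 T-like, -0.126 to 0.48 in other T, -0.0947 to 0.618 in natural killer-like and -0.3 to 0.234 in monocyte-like cells. Ly6c1 ranged from -0.716 to 0.0872 in other T cells. Ly6c2 ranged from -0.63 to 0.815 in CD8 T-like, -0.417 to 1.58 in natural killer-like, -0.618 to 0.479 in monocyte-like and -1.9 to 3.4 in cDC2-like cells. Ly6c2 was 0.00698 with the block and 0.00193 with the crossed pairing in CD8 T-like cells, -0.599 with equal cells and -0.174 without the highest cells in natural killer-like cells, 0.176 with clusters and 0.244 with equal cells in monocyte-like cells, and -1.3 with clusters in cDC2-like cells. Ly6e in monocyte-like cells was 0.0137 with no filter, 0.0355 with clusters and 0.0305 without the highest cells. Summed with Ly6c2, Ly6c1 in all cells was 0.24. With clusters Ly6i was -0.317 for monocyte-like over macrophage-like levels.

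The stress minus control difference in thinned shares of macrophage-like cells with Ly6a, 24.9 points, was 11.8 at 500 UMIs, 39.3 unthinned and 20.8 with doublets kept. For Ly6c2 the 9.17 points became 5.56, 14.1 and 6.88. For Ly6a in cDC2-like cells the difference became 14 points at 500 UMIs and 32 unthinned, and for Ly6d in plasma cell-like cells -18.2 became -10.5 at 500 UMIs and -15.3 with doublets kept. The stricter gate left under 30 cells of monocyte-like, dendritic and natural killer-like types in a library and gave no value there. Leaving out immunoglobulin genes, the highest cells, the crossed pairing and the macrophage-like minus plasma cell-like test were chosen after seeing the data. Genes called over all settings ranged from 33 to 665 in macrophage-like cells (52 in the main test) and from 24 to 395 in plasma cell-like cells (42 in the main test). They reached 3303 in all cells (0 in the main test), 1371 in B cell-like (25), 917 in CD4 T-like (3) and 940 in CD8 T-like cells (0), so member calls in those fits are read against a larger share of all genes. Few UMIs limit Ly6i and Ly6c1 in most types, and Ly6a and Ly6c2 in control cDC1-like cells.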
